A study of Homo sapiens with 2 samples.

Results

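The genes that encode matrix metalloproteinases (MMPs), ADAM and ADAMTS metalloproteinases, meprins, and the inhibitors TIMP1 to TIMP4 and RECK were followed in CWR22rv1 cells, a human prostate cancer line. They were chosen by symbol, with earlier results of these data known, and they number 69 of the 19607 genes in the deposited table. These were 23 MMPs, 20 ADAMs, 19 ADAMTS genes, 2 meprins and 5 inhibitors. RNA sequencing compared 1 library of cells with CRISPR/Cas9 knockout of Akt1 and Akt2 (Akt1/2 DKO) with 1 library of wild type control cells. The knockout cells were isolated as monoclonal cells after puromycin selection, and the labels say neither which clone was sequenced nor whether the control cells were a clone. The study asked how loss of Akt1/2 acts on metastasis, and invasion through Matrigel was among its readouts.

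MMPs are zinc-dependent endopeptidases that are made as inactive proenzymes and cleave collagens, laminins and other matrix proteins, either after secretion or, for the membrane-type members, at the cell surface. ADAMs are membrane proteins of which some shed the outer parts of growth factors and receptors, while others have lost the zinc site and act as adhesion molecules. ADAMTS enzymes are secreted and cut proteoglycans, procollagens and von Willebrand factor. TIMPs bind the active site of these enzymes, and RECK is a membrane-anchored inhibitor. In carcinoma these proteases are studied for their part in the breach of basement membrane, and their activity is set by proenzyme cleavage and by inhibitors as well as by RNA.

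The control library held 9970825 reads and the Akt1/2 DKO library 10718654, after the authors' estimated counts were rounded to whole reads. At this depth 3 reads, the floor used here for a gene at 0, correspond to 0.301 and 0.280 CPM, a read count scaled to library size. AKT1 had 2645 reads in control and 591 in Akt1/2 DKO, and AKT2 had 2362 and 667, so the libraries went with their labels. Of the 8 luminal prostate markers all had reads in both libraries, with FOXA1 at 2511 and 3289, although 4 were called higher and 2 lower, the latter HOXB13 (2363 and 865) and KLK3 (184 and 29). The 6 fibroblast markers held 142 reads in control and 157 in Akt1/2 DKO, with COL1A1 at 55 and 106, COL3A1 at 74 and 9, LUM at 5 and 35, and DCN at 3 and 0. The 5 leukocyte markers held 56 and 80 reads, most of them of CD68, with PTPRC at 1 and 0. The 4 endothelial markers held 2 and 2 reads with CDH5 at 0 in both libraries, and the 4 basal markers held 15 and 0 with TP63 and KRT5 at 0 in both.

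With 1 library per condition there is no measure of the spread between cultures, so no p-value is given for any gene. A fold change is the ratio of TMM-normalized reads of Akt1/2 DKO to control, and its 95% exact (Clopper-Pearson) interval covers counting error only. A gene was tested where the 2 libraries together held at least 10 reads and was called different at 1.5-fold, the threshold named in the study. Of the 69 genes, 25 had 0 reads in both libraries, 17 had 1 to 9 reads in the 2 libraries together, and 27 were tested. Of the 27, 7 were at least 1.5-fold higher in Akt1/2 DKO and 8 at least 1.5-fold lower, and 12 were between. The share called was 55.6%, while 30.9% of all 13318 tested genes were called, 15.9% higher and 15.0% lower. Of the 15 genes called, 13 also had a counting interval that left out no change, or 48.1% of those tested against 27.0% of all tested genes. Among the 22 with at least 50 reads, 12 were called (54.5%), against 25.7% of all genes with that many reads. The median log2 fold change of the 27 was -0.10 and that of all tested genes 0.01, so the differences ran in both directions. The median absolute log2 fold change was 0.67, against 0.33 over all tested genes. In bulk RNA, less RNA per cell and fewer cells that make it cannot be told apart.

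**Figure D1:**
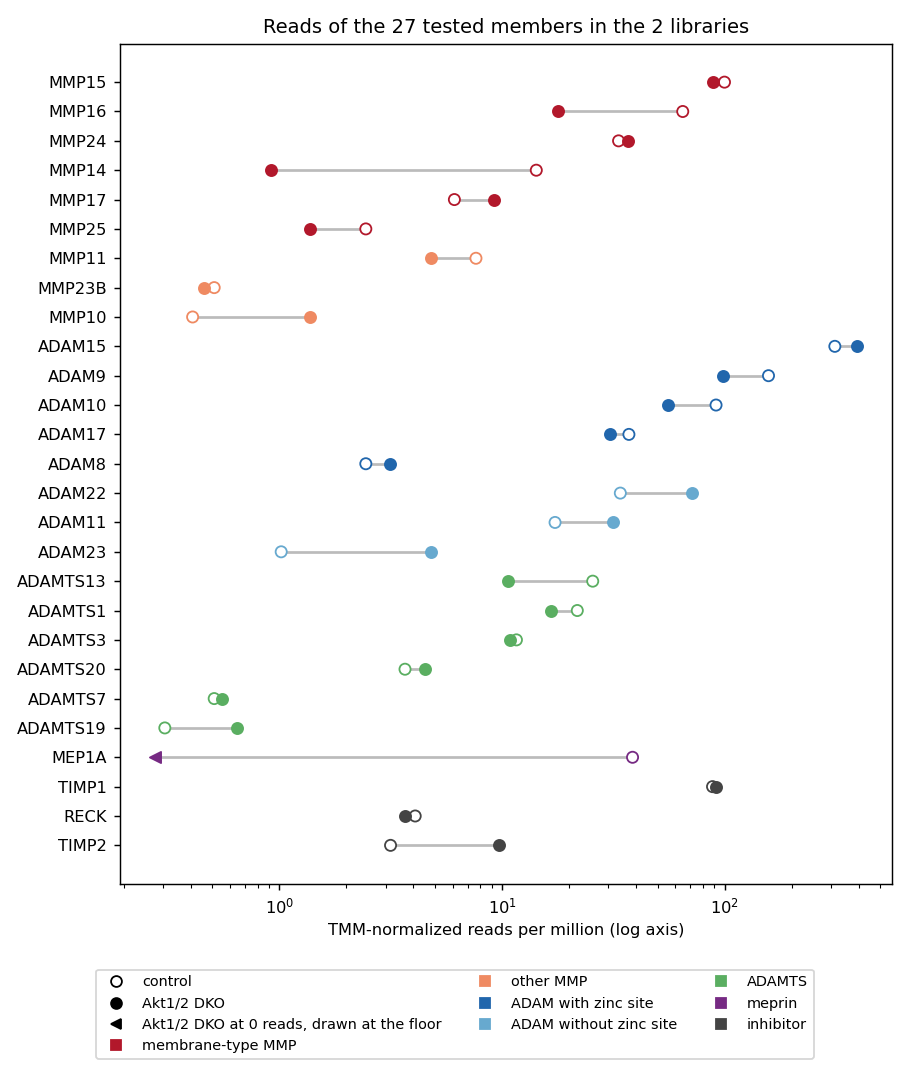
TMM-normalized CPM (log axis) of the 27 tested genes in control (open circles) and Akt1/2 DKO (filled circles), coloured by role, with 1 library per condition and a grey line joining the 2 values. MMP14, MMP16 and MEP1A show the widest gaps to the left, ADAM23 and TIMP2 wide gaps to the right, and MEP1A, at 0 reads in Akt1/2 DKO, is drawn at the floor of 3 reads.

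All 6 membrane-type MMPs were tested, and 3 of them were at least 1.5-fold lower in Akt1/2 DKO, against 15.0% of all tested genes. MMP14 (MT1-MMP, ENSG00000157227, chromosome 14 from 22836557 to 22849027) cleaves fibrillar collagen at the cell surface and activates proMMP2. It had 140 reads in control and 10 in Akt1/2 DKO, 15.5-fold lower (95% interval 8.19 to 33.1). MMP16 (MT3-MMP, ENSG00000156103, chromosome 8 from 88032009 to 88328025), which also activates proMMP2, had 637 and 195 reads, 3.62-fold lower (95% interval 3.08 to 4.27). Both were thus low in the knockout library, and MMP2 itself, their best known proenzyme substrate, had 0 reads in both libraries.

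The other membrane-type members differed less. MMP15 (MT2-MMP), the one with the most reads, had 981 and 965, a log2 fold change of -0.17 (95% interval -0.30 to -0.04). MMP24 (MT5-MMP), best known from the nervous system, had 328 and 399 reads, a log2 fold change of 0.13 whose interval (-0.08 to 0.35) included no change. MMP17, which is held in the membrane by a GPI anchor, had 60 and 100 reads and stood at the threshold with a log2 fold change of 0.59 (95% interval 0.11 to 1.07). It dropped below 1.5-fold with DESeq2 size factors, with the authors' FPKM, and with 0.5 or 1 read added. MMP25, likewise GPI-anchored, had 24 and 15 reads, 1.77-fold lower with an interval from 0.893 to 3.64, so its direction was not resolved at this depth. Of the exon bases of MMP25, 35.2% lie opposite exons of MMP25-AS1, and of those of MMP24, 18.1% lie opposite MMP24OS. Whether the counting used strand is not given in the sources used here, so reads of these pairs may be mixed.

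The secreted MMPs and the other members outside the membrane-type set were nearly silent. Of these 17 genes, 9 had 0 reads in both libraries, among them the gelatinase gene MMP2, the matrilysin gene MMP7 and the collagenase genes MMP8 and MMP13. Another 5 had 1 to 9 reads in the 2 libraries together, among them MMP9, the other gelatinase, with 2 in control and 0 in Akt1/2 DKO, and MMP28 with 3 and 3. MMP11 (stromelysin-3), which is cleaved by furin before it leaves the cell, was the only one with at least 50 reads. It had 75 and 52, 1.60-fold lower (95% interval 1.11 to 2.32). MMP23B had 5 reads in each library, and its reads can be shared with its near-identical copy MMP23A.

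The MMP cluster of 9 genes on chromosome 11 (from 102520508 to 102955734) was also almost without reads, with 6 of the genes at 0. The reads there came from MMP10, MMP1 and MMP3, which lie next to each other in the order named. MMP10 (stromelysin-2) had 4 reads in control and 15 in Akt1/2 DKO, 3.38-fold higher with an interval from 1.08 to 14.0. In the authors' FPKM it had 0.58 and 0.79, a log2 ratio of 0.45 that was below the threshold. MMP1 (interstitial collagenase) had 2 and 7 reads, and MMP3 (stromelysin-1) had 0 and 1. The whole cluster held 6 and 23 reads, a log2 fold change of 1.79 (95% interval 0.45 to 3.38), so the higher value rests on few reads.

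The DNA upstream of MMP14 and MMP10 is shown because these MMPs had the lowest and the highest fold of the family in reads, and that of ADAM23 because it had the highest fold among all tested members. Each run is the 250 bases before the RefSeq gene start (build GRCh38.p14), written 5′ to 3′ on the strand of the gene. Capitals mark matches on either strand to the AP-1 motif TGANTCA, the forkhead motif GTAAACA, the TATA motif TATAAA or the GC box GGGCGG. The windows are chr14:22836335-22836584 on the plus strand for MMP14, chr2:206443282-206443531 on the plus strand for ADAM23 and chr11:102780629-102780878 on the minus strand for MMP10.
MMP14: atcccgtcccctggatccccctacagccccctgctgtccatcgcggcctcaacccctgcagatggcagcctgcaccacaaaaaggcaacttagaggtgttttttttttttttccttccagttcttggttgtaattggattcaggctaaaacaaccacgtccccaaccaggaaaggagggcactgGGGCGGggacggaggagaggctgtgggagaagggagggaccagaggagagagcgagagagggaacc
ADAM23: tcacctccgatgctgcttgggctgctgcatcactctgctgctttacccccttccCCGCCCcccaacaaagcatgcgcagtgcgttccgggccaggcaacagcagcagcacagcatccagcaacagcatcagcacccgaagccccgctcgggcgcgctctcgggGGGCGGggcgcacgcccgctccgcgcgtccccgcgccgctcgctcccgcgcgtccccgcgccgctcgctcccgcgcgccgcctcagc
MMP10: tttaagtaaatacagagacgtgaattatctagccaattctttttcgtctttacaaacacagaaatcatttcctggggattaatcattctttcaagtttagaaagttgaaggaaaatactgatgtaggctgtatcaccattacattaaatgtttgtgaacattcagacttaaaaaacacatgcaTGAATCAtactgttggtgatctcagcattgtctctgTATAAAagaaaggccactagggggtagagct
The MMP10 window held an AP-1 match that ends 61 bases before the start and a TATA match that ends 26 bases before it, and its GC content was 34.4%. The windows of MMP14 and ADAM23 held only GC boxes, 1 and 2 of them, with GC contents of 56.8% and 73.6%. Of the 27 tested members, 19 had an entry, and MEP1A and TIMP2 were among those without. Of the 19, 18 held a GC box, against 75.0% of the tested genes with an entry and 42.6% of all 35116 promoters. MMP10 was the only one of the 19 with an AP-1 match and the only one with a TATA match, which 6.57% and 10.7% of all promoters held. The forkhead motif, which FOXO factors downstream of Akt bind, was found in ADAMTS13 alone and in 2.98% of all promoters. A match of letters does not show binding, and starts other than the RefSeq one were not searched.

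The ADAMs are described by whether they keep a working zinc site, a grouping taken from general knowledge, and the difference between these small groups was not tested. Of the 5 tested members with the site, 2 were called lower and none higher, though ADAM15 and ADAM8 had log2 fold changes above 0. Of all tested genes, 15.0% were called lower and 15.9% higher. ADAM15, which carries an integrin-binding motif and sheds cadherins, had the most reads of any gene in the set, 3073 in control and 4299 in Akt1/2 DKO. Its log2 fold change was 0.34 (95% interval 0.27 to 0.40), below the threshold but beyond counting error. ADAM9 had 1547 and 1076 reads, 1.59-fold lower (95% interval 1.47 to 1.72). ADAM10, the main sheddase of Notch receptors and E-cadherin, had 899 and 607 reads, 1.64-fold lower (95% interval 1.48 to 1.82), but by FPKM its log2 ratio was -0.21, which ends the call. In reads, in both cases the interval lay on 1 side of no change but reached below the 1.5-fold threshold.

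ADAM17 (TACE), which releases TNF and several ERBB ligands, had 365 and 332 reads, a log2 fold change of -0.29 (95% interval -0.50 to -0.07). Its estimated counts were the only fractional ones in the set, and 12.3% of its exon bases lie opposite exons of IAH1. ADAM8, best known from leukocytes, had 24 and 34 reads, with an interval that included no change. The remaining 7 with the site had at most 3 reads in the 2 libraries together, and ADAM12, ADAM28 and ADAM30 had 0.

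Of the 8 ADAMs without a working zinc site, 3 were tested, and all 3 were called higher in Akt1/2 DKO, against 15.9% of all tested genes. They are ADAM11, ADAM22 and ADAM23, surface receptors that bind the secreted LGI proteins and are best known from the nervous system. ADAM22 (ENSG00000008277, chromosome 7 from 87934143 to 88202889) had 334 reads in control and 781 in Akt1/2 DKO, 2.11-fold higher (95% interval 1.85 to 2.40). ADAM11 (ENSG00000073670, chromosome 17 from 44759031 to 44781846) had 170 and 342 reads, 1.81-fold higher (95% interval 1.51 to 2.19). ADAM23 (ENSG00000114948, chromosome 2 from 206443539 to 206621130) had 10 and 52 reads, 4.69-fold higher (95% interval 2.36 to 10.4). The intervals of all 3 lay above 1.5-fold, and the genes lie on different chromosomes. Over all 8 the summed FPKM, a level per transcript length, was 9.76 in control and 22.6 in Akt1/2 DKO, and of the other 5 only ADAM32 had any reads, 2 and 0. The LGI genes, looked up after these values were seen, gave 14 and 157 reads for LGI2, 12 and 4 for LGI3, 1 and 1 for LGI4 and 0 in both libraries for LGI1. ADAM2, ADAM7, ADAM18 and ADAM29 had 0 reads in both libraries.

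**Figure D2:**
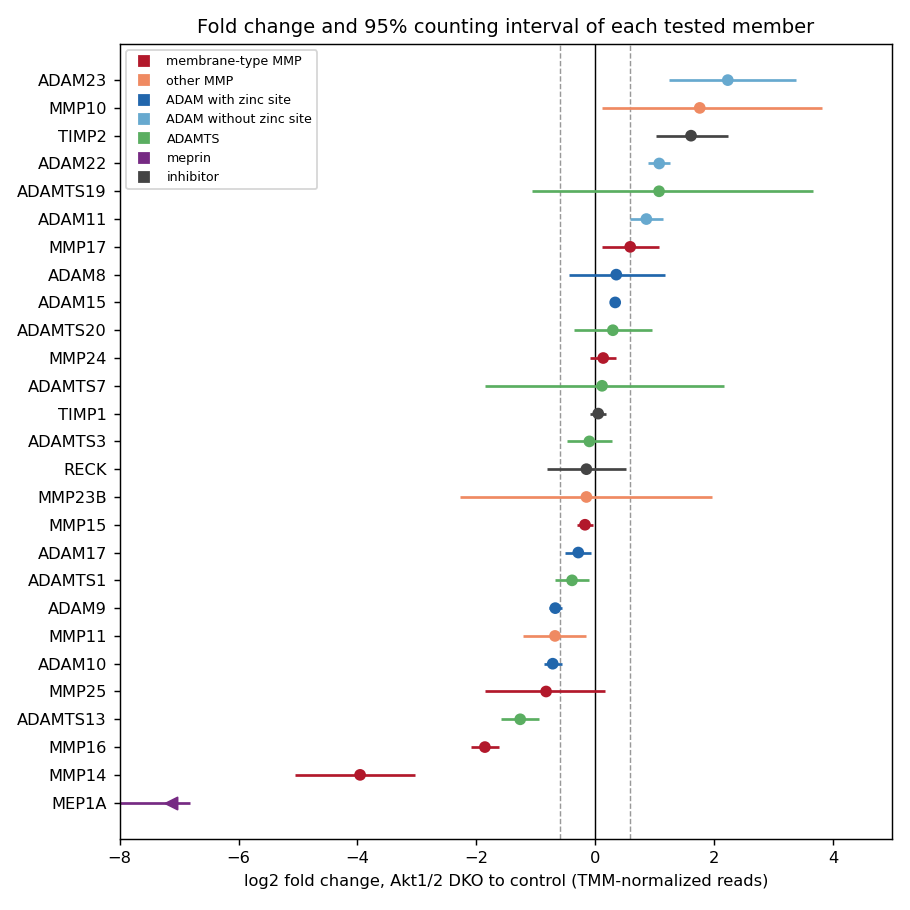
Log2 fold change of TMM-normalized reads, Akt1/2 DKO to control, for each of the 27 tested genes with its 95% exact counting interval, coloured by role, with dashed lines at 1.5-fold. ADAM23 (2.23) is at the top and MMP16, MMP14 and MEP1A at the bottom. The MEP1A triangle is the value at the read floor, and its interval runs off the left edge.

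Of the 19 ADAMTS genes, 6 were tested, with 1 called higher and 1 lower, against 15.9% and 15.0% of all tested genes. ADAMTS13, the protease that cleaves von Willebrand factor, had 251 and 116 reads, 2.40-fold lower (95% interval 1.92 to 3.02). VWF, its substrate, had 0 and 2 reads. ADAMTS3, which processes procollagen and VEGFC, had 114 and 118 reads, and its interval (-0.48 to 0.29 on the log2 scale) included no change. ADAMTS20, a versican-cleaving member, had 36 and 49 reads, also with no change in its interval. In the authors' FPKM it had 0.85 and 1.34, a log2 ratio of 0.66 that was past the threshold.

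ADAMTS1, which also cleaves versican, had 214 and 181 reads, a log2 fold change of -0.39 (95% interval -0.68 to -0.10). By FPKM it was instead higher, at 4.11 in control and 5.25 in Akt1/2 DKO. ADAMTS19 was called higher on 3 and 7 reads, with an interval from 0.480 to 12.6 that included no change, and in FPKM with 0.1 added its log2 ratio of 0.52 was below the threshold. ADAMTS12 was below the read minimum with 7 reads in control and 0 in Akt1/2 DKO. Another 4 had 1 to 5 reads over both libraries, and 8 had none, among them the aggrecanase genes ADAMTS4 and ADAMTS5.

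MEP1A (ENSG00000112818) encodes the alpha subunit of meprin, a secreted metalloproteinase best known from intestinal and kidney epithelium. It had 379 reads in control and 0 in Akt1/2 DKO, or 140-fold lower when that library is set to its 3-read floor (95% interval from 113 upward). MEP1B, the beta subunit, had 0 and 1 reads. MEP1A lies on chromosome 6 from 46793390 to 46839782, inside a run of 10 neighbouring genes with at least 50 reads that were all at least 1.5-fold lower in Akt1/2 DKO. The run reached over 1.41 Mb from RCAN2, at 46220736, to CD2AP, at 47627263.

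The genes nearest to MEP1A in this run differed most. PLA2G7, which encodes a lipoprotein-associated phospholipase, had 888 and 41 reads, 24.0-fold lower (95% interval 17.6 to 33.7). TDRD6 had 119 and 2 reads, 66.0-fold lower with a wide interval (17.9 to 551). On the other side ADGRF5 and ADGRF1, adhesion-type receptors, had 68 and 6 reads and 51 and 1 reads. TNFRSF21 (death receptor 6), the gene of the run with the most reads, had 3078 and 455, a log2 fold change of -2.91 (95% interval -3.05 to -2.76).

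At the edges of the run the folds were smaller. RCAN2, CYP39A1 and SLC25A27 were 3.29-fold, 3.55-fold and 3.48-fold lower, and CD2AP was 2.00-fold lower. The genes with at least 50 reads that flank the run, ENPP5 and MUT, had log2 fold changes of -0.23 and -0.21 and were not called. The 9 genes beside MEP1A held 5809 reads in control and 1273 in Akt1/2 DKO. Only 1 other run of lower genes in the genome had as many members, also 10, and it lay on chromosome 3, where the median over genes was -0.53 on the log2 scale, against 0.08 on chromosome 6. Whether the DNA of this stretch differed between the cells was not tested.

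**Figure D3:**
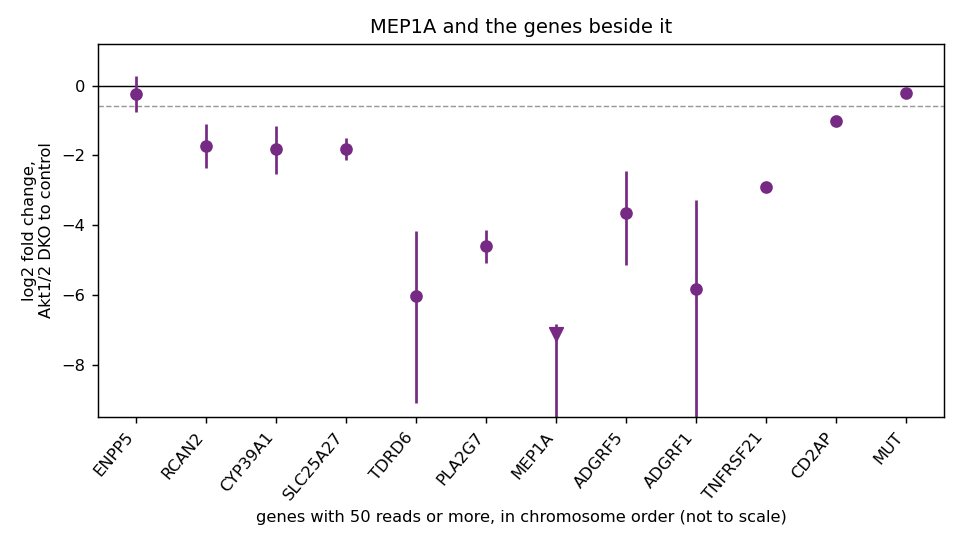
Log2 fold change, Akt1/2 DKO to control, with the 95% exact counting interval, for the genes with at least 50 reads from ENPP5 to MUT in their order on chromosome 6 (1 library per condition, dashed line at 1.5-fold lower). Every gene from RCAN2 to CD2AP lies below the dashed line, TDRD6, MEP1A and ADGRF1 lowest, while the flanking ENPP5 and MUT lie above it. The MEP1A triangle is the value at the read floor.

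For the 6 members other than MEP1A with at least 50 reads and at least a 2-fold difference (MMP14, MMP16, TIMP2, ADAM22, ADAM23 and ADAMTS13), the 2 nearest genes with at least 50 reads on each side were looked up. Of these 24 neighbours, 6 differed by at least 1.5-fold, a share of 25%, while 25.7% of all genes with at least 50 reads did. Of these 6, 4 differed in the direction of their member and 2 in the opposite one. The 4 were SARDH (55 and 8 reads) beside ADAMTS13, ZDBF2 (139 and 298) beside ADAM23, LRP10 beside MMP14 and CANT1 beside TIMP2. The other 2 were MDH1B (46 and 27) beside ADAM23 and STEAP1 (899 and 324), which lay 1951 kb from ADAM22. MMP14 had MRPL52 at 292 and 354 reads on 1 side and LRP10 at 797 and 580 on the other, the latter called lower with a log2 fold change of -0.61. TIMP2 had USP36 at 747 and 992 reads and CANT1 at 772 and 1315, the latter called higher with a log2 fold change of 0.62. The nearest such genes to MMP16, CPNE3 and RIPK2, lay 1471 and 1430 kb away and were not called. The medians of the 19 chromosomes that hold tested members lay between -0.20, for chromosome 8, and 0.12. On chromosome 3 only ADAMTS9, with 1 read, and TIMP4, with 0, are members.

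Among the inhibitors, TIMP1 carried nearly all the reads. It had 867 in control and 995 in Akt1/2 DKO, a log2 fold change of 0.05 (95% interval -0.08 to 0.18), which bounds a difference of TIMP1 RNA between these libraries at 1.14-fold in counting error. TIMP2, which inhibits MMPs and also bridges MMP14 to proMMP2, was the only inhibitor called. It had 31 and 105 reads, 3.06-fold higher in Akt1/2 DKO (95% interval 2.03 to 4.72). RECK had 40 reads in each library, with an interval of 0.567 to 1.43 for its fold. TIMP3, the matrix-bound inhibitor of ADAM17, had 2 reads in each, and TIMP4 had 0.

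Levels between genes were compared in FPKM. The same 5 genes led in both libraries and held 78.6% of the summed FPKM of the 69 genes in control and 82.4% in Akt1/2 DKO. ADAM15 had 109 FPKM in control and 141 in Akt1/2 DKO, and TIMP1 had 97.1 and 104. ADAM9 had 41.1 and 26.7, ADAM10 24.1 and 20.8, and MMP15 23.0 and 22.1, so the last pair changed places.

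The sum over all 69 genes was nearly level, 374 FPKM in control and 382 in Akt1/2 DKO. In control MEP1A, at 13.0 FPKM, came next, and it was listed at 0 in Akt1/2 DKO. MMP14 had 4.35 FPKM in control and 0.48 in Akt1/2 DKO, and TIMP2 had 0.85 and 2.78. The 23 MMPs summed to 55.1 FPKM in control and 42.6 in Akt1/2 DKO, and the 4 TIMPs to 98.0 and 107. The sum of TIMPs was therefore 1.78 times that of MMPs in control and 2.50 times in Akt1/2 DKO, a ratio of RNA levels and not of proteins. The largest falls among the MMPs were those of MMP16, at 10.8 and 1.61 FPKM, and MMP14, so the ratio rests mostly on these genes. TIMP1, whose read interval included no change, made up most of the TIMP sum. MMP16 is also a gene for which reads and FPKM gave unlike folds.

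Reads and FPKM gave unlike answers for some genes. The gap was expressed as an implied length, computed from reads, FPKM and library size, which restates the difference between both measures, with a ratio of Akt1/2 DKO to control of 1.0 at the median of 10332 genes with at least 50 reads in each library. For TIMP1 it was 896 bases in control and 895 in Akt1/2 DKO. Of the 15 members with that many reads, 3 had a length that differed by more than 1.2-fold between the libraries, against 7.12% of all such genes, and 3 by more than 1.3-fold, against 3.73%. Both limits were chosen after the values were seen. The 3 genes were MMP16, ADAM10 and ADAMTS1.

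For MMP16 the implied length was 5926 bases in control and 11300 in Akt1/2 DKO, and the protein-coding transcripts in GENCODE release 29 are 551 and 11558 bases long. Its log2 ratio in FPKM was -2.74, against -1.86 in reads. For ADAM10 it was 3749 and 2719 bases, and the log2 ratio was -0.21 in FPKM, below the threshold, against -0.72 in reads. For ADAMTS1 it was 5222 and 3216 bases, with the longest coding transcript at 5191 bases, and the sign of the difference turned. MMP14, with 10 reads in Akt1/2 DKO, was 15.5-fold lower in reads and had a log2 ratio of -3.18 in FPKM. Whether these genes used other transcripts in Akt1/2 DKO was not tested.

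**Figure D4:**
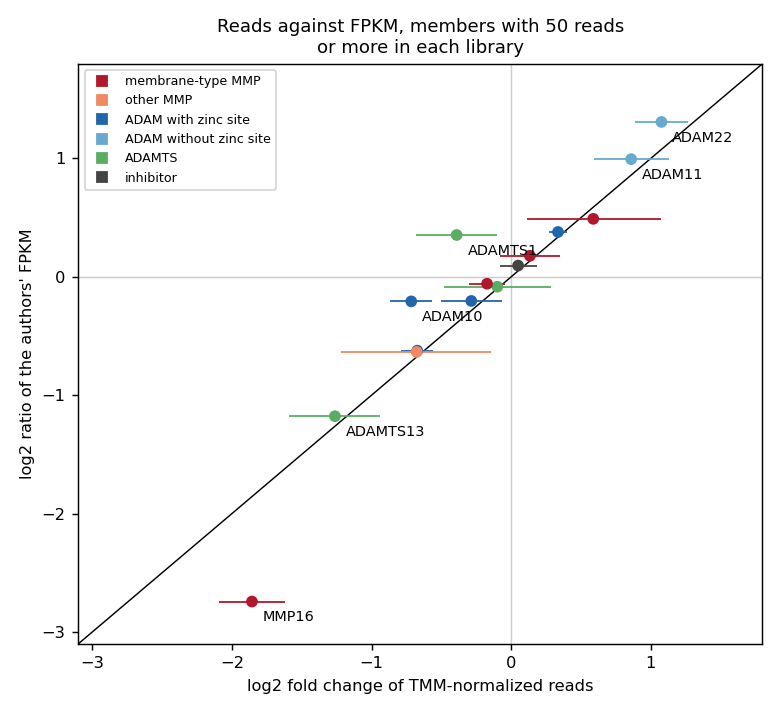
Log2 ratio of the authors' FPKM (vertical) against log2 fold change of TMM-normalized reads with its 95% counting interval (horizontal) for the 15 members with at least 50 reads in each library, coloured by role, with the line of equality. MMP16 lies below the line at -1.86 in reads and -2.74 in FPKM, ADAM10 and ADAMTS1 lie above it, and ADAMTS1 is the only one with opposite signs.

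The genes that act with these proteases were taken as lists from general knowledge, with earlier results of these data known. Their counts are read against the 15.9% of tested genes called higher and the 15.0% called lower. In plasminogen activation, which can start proMMP cleavage, 3 of 9 genes were tested. PLAUR, the urokinase receptor, had 28 and 73 reads and was called higher. PLAT, tissue plasminogen activator, had 35 and 15, and SERPINE2, a protease inhibitor, had 177 and 74, and both were called lower.

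Among 13 tested convertases and shedding partners, 5 were called higher and 3 lower. SORL1, a sorting receptor that is itself shed by ADAM17, had 11 and 138 reads, and TSPAN33, a tetraspanin that guides ADAM10, had 22 and 85. PCSK6, a proprotein convertase, was called lower with a log2 fold change of -1.34, and so was TSPAN14, another partner of ADAM10, with 977 and 665 reads. FURIN, also a convertase, had 584 and 1124 reads and was called higher, while PCSK7 (722 and 694) was not called. PCSK5, with 1 and 0 reads, was not tested. Of the other tetraspanins in this list, TSPAN5 (35 and 114 reads) and TSPAN15 (90 and 229) were called higher, and TSPAN17 (680 and 800) was not called. TSPAN10, with 0 and 5 reads, was not tested, so TSPAN14 was the only tetraspanin of the list called lower.

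Of 17 tested substrates of ADAM10 or ADAM17 other than ERBB ligands, 8 were called higher and 1 lower. CD44, the hyaluronan receptor, had 21 and 542 reads (log2 fold change 4.54, 95% interval 3.91 to 5.24). By FPKM its log2 ratio was 3.63, below that interval but still past the threshold. NOTCH3 had 35 and 821 reads. CDH1, which encodes E-cadherin, was the 1 called lower, with 5349 and 3343 reads, and TNFRSF1A had 864 and 877 and was not called. Of 4 tested ERBB ligands, HBEGF had 32 and 81 reads and was called higher, AREG was called lower with 38 and 2, and TGFA had 49 and 39 with an interval that included no change. AREG lies outside the rule for named genes and was named after its values were seen.

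Of 13 tested matrix substrates, 6 were called higher and 6 lower. COL4A2, a basement membrane collagen, had 23 and 137 reads and TNC, which encodes tenascin C, had 104 and 479. COL3A1, a fibrillar collagen, had 74 and 9 reads, and THBS1, which encodes thrombospondin-1, had 596 and 103. COL3A1 is also one of the fibroblast markers given above.

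Of 6 tested genes for other inhibitors and clearance, 3 were called lower and none higher. SPOCK1, which encodes the proteoglycan testican-1, had 558 and 69 reads, 8.97-fold lower (95% interval 6.97 to 11.7), and LRP1, the endocytic receptor that takes up MMP and TIMP complexes, had 146 and 67. A2M and SPOCK2 had 31 and 33 reads and 184 and 195 reads, with intervals that included no change. Of 4 tested astacins, TLL1 was called higher with 14 and 44 reads and TLL2 lower with 14 and 4, while BMP1, the procollagen C-proteinase, had 353 and 325 and was not called. Of 5 tested ADAMTS-like genes, which lack the protease domain, THSD4 was called higher with 39 and 98 reads, though its FPKM was 1.04 and 0.99, and 3 were called lower, among them PAPLN with 53 and 15 and ADAMTSL5 with 33 and 18.

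Of 18 tested transcription factors known to act on MMP promoters, 7 were called higher and 3 lower. TWIST1 had 7 and 122 reads and ETS2 had 192 and 695. SNAI1 was also called higher, with 1 and 28 reads. SNAI2, known for its part in epithelial to mesenchymal transition, had 494 reads in control and 0 in Akt1/2 DKO. With Akt1/2 DKO set to the same floor, SNAI2 was 183-fold lower, with a counting interval from 148 upward. ELK3 had 64 and 40 reads. In FPKM, with a log2 ratio of -0.39, ELK3 was below the threshold.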

How the data were processed

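RNA from 1 library of Akt1/2 DKO and 1 library of control CWR22rv1 cells was sequenced. The deposited table gives raw estimated counts for each gene beside FPKM, both as the authors made them. The submitters' processing notes name fastp 0.20.0, TopHat, Cufflinks, edgeR and the build GRCh38.p10, without their roles. Other deposited tables hold the authors' own fold changes, p-values, correlation and ontology summary and were not used.

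Estimated counts were made whole by rounding, and a gene needed 10 reads over both libraries to be tested. TMM scaling (edgeR 4.0.16, R 4.3.3) put the effective size of the Akt1/2 DKO library at 1.11 times that of control. A gene at 0 reads in 1 library was set to the floor of 3 reads. Intervals are 95% exact and, like the floors, cover counting error only. Reads without molecular identifiers are not independent molecules, so the intervals may be too narrow even for counting error. No test between conditions was possible with 1 library each, and no batch can be told apart from the conditions. The steps were tested on simulated data.

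Named genes are members whose summed reads reached 50, or 10 with a 1.5-fold difference (25 genes), AKT1 and AKT2, and in each accompanying list the 2 highest and 2 lowest folds among genes with at least 50 reads. Others named (the LGI genes, AREG, TLL2, SNAI1, further convertases and tetraspanins, the neighbours and genes at few reads) were chosen after their values were seen. Members and lists were chosen with earlier results of these data known. Gene positions are those of GENCODE release 29 (GRCh38), which holds all 69 members, and upstream sequences from RefSeq (GRCh38.p14). Protein sequences were not used here, so zinc sites were taken from general knowledge. Alternatives were total count, upper-quartile and DESeq2 1.42.0 scaling, 3 read filters, the authors' FPKM with 0.1 added, 0.5 or 1 read added, a 2-fold threshold, and intervals that leave out no change. Python 3.11.15 with scipy 1.17.1 gave the intervals.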

Additional observations from a re-analysis of the deposited data

How the results depend on the processing

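The number of members at least 1.5-fold higher was 7 and stayed between 5 and 10 under the alternatives run, and the number at least 1.5-fold lower was 8 and stayed between 7 and 9, except that a 2-fold threshold left 4, since it asks for a larger difference. The read filters left from 22 to 44 tested members, against 27 in the main setting, so these counts do not share the same base. The median log2 fold change of the members, -0.10, lay between -0.15 and 0.07, the last with the authors' FPKM. Of 150 values of the 25 named members under 6 alternatives, 145 stayed within the counting interval and 5 moved past it, all with FPKM (0.1 added): ADAM10 to -0.21, ADAM22 to 1.29, ADAMTS1 to 0.35, MMP14 to -2.94 and MMP16 to -2.67. The scalings shift every gene alike and by little, and 0.5 or 1 read weighs only on genes with few reads. Those settings could hardly move a value past its interval, and with FPKM 5 of the 25 moved. With FPKM the calls of ADAM10, MMP10, MMP17 and ADAMTS19 were also lost, and ADAMTS20 passed 1.5-fold higher. Of the 5 that moved, ADAMTS1, which was not called, changed sign, and the cause was not tested. Adding 0.5 read was chosen after seeing the data. Depth limits ADAMTS19, MMP25, ADAM8, ADAMTS7 and MMP23B, whose intervals included no change. No paired analysis was possible because neither condition has another library.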
